A study of Bos taurus with 96 samples.

Results

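Macrophages are phagocytes of blood monocyte or embryonic origin that live in every fat depot, where they clear dying adipocytes and debris and respond to microbial products. Their survival depends on signalling through the receptor CSF1R, and they take up ligands by scavenger receptors, among them CD163, which binds haptoglobin-haemoglobin complexes, and MSR1, which binds modified lipoproteins. In cattle the scavenger receptor cysteine-rich family is expanded. CD163L1 and the WC1 genes belong to it, and WC1 proteins are best known from the surface of gamma delta T cells.

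The genes described are CD163, CD163L1, CD68, CSF1R, AIF1, MSR1, CD14 and MRC1, 8 genes chosen as macrophage and scavenger receptor genes and found by bovine RefSeq accession or by the probe names in the tables of the study. Of the 8, 7 had a tested probe, out of 10616 genes named by the 34227 probes tested. MRC1, the mannose receptor, had no probe by this rule and was not analysed here. The 7 genes are read by 18 probes with 1 name, and 4 further probes carry a CD163L1 accession beside another name. The tissues came from Bos taurus steers of 3 breeds, Angus, Hereford and Wagyu x Angus, and every label gives 259 days in a feedlot. By the study's methods the fat donors were slaughtered at about 26 months of age. Omental fat (Omen), fat around the kidney (Kid), intermuscular fat (Inter), subcutaneous rump fat (SC) and intramuscular fat dissected from the longissimus dorsi (IMF) were each read on 12 arrays, 4 per breed, all from animals labelled as pasture fed. The longissimus dorsi muscle (LD) was read on 24 arrays of pasture fed animals (8 per breed) and on 12 of animals given a supplement (4 per breed). The feeding labels refer to the time after weaning. The LD samples held their intramuscular fat in place, and by the same methods some of them, of both feeding groups, came from animals killed earlier. The labels do not say which, so the age at slaughter cannot be told apart from tissue or feeding in any comparison with LD. These are whole tissues, so fewer cells of a type and less RNA per cell cannot be told apart.

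Levels are log2 signals relative to the 75th percentile of the array, so a level of 0 is the signal at that percentile, and levels of different probes were not ranked against each other. Between 66.2% and 88.7% of probes were above background per array, and arrays of a group correlated at 0.93 to 0.99. Adipocyte markers met the labels: all 7 (ADIPOQ, PLIN1, FABP4, LEP, CIDEC, LIPE and PPARG) were higher in IMF than in LD, by a median of 4.18. All 12 skeletal myofibre markers measured were higher in IMF than in SC, by a median of 10.86, and their summed level was 10.09 to 11.66 in IMF, 0.43 to 1.34 in SC and 12.11 to 12.59 in LD on pasture. A summed level is the log2 of the sum of the linear levels of a list. Dissected IMF thus carried RNA of muscle fibres, and its part in the IMF values below was not tested. In 2 of the 12 Inter arrays (Wagyu x Angus arrays 1 and 3) this sum reached 6.38 and 9.80, against 0.53 to 3.17 in the others. Here and below, arrays are numbered by accession order within a tissue, breed and feeding group. These are not the replicate numbers of the labels, which repeat within some groups. The scan days were unevenly filled. Of the SC arrays 11 were scanned on day 1 and 1 on day 3, all IMF arrays on day 3, all Inter arrays on day 2, 10 Omen arrays on day 3 and 2 on day 2, and the Kid arrays on days 1 to 3 (5, 6 and 1). The LD arrays on pasture were spread evenly, 8 a day.

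CD163 had the widest span of tissue means of the 7 members when each was read by its brightest probe. By its brightest probe (A_73_P091466, named CD163 by the study's tables) it was highest in SC, where the 12 arrays lay between 0.19 and 2.99 with a median of 2.09. In IMF they lay between -3.97 and -0.83 with a median of -2.69. Inter (-1.89 to 0.74, median -0.38), Kid (-1.37 to 1.51, median -0.13) and Omen (-1.35 to 0.94, median -0.22) lay between them. No IMF array reached the lowest SC array, and LD on pasture was lower still, between -5.85 and -3.02 with a median of -4.40. The means were 1.99 ± 0.78 in SC and -2.54 ± 0.88 in IMF (SD, n = 12 each), a difference of -4.53 (SE 0.32), or 23.1-fold (limma, adjusted p = 2.01e-11).

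CD163L1, a member of the same receptor family, followed the same order by its brightest probe (A_73_P089866). Its level was -1.11 to 1.94 in SC (median 0.93), -4.68 to -2.12 in IMF (median -3.75), and -3.18 to -0.71 in Inter, -2.80 to 0.30 in Kid and -2.70 to -0.20 in Omen. Each of the 12 IMF arrays was under the lowest SC array, and the mean difference was -4.49 (SE 0.31), or 22.5-fold (adjusted p = 1.03e-11). In LD on pasture it was above background on 14 of 24 arrays only, at -6.92 to -4.00, so its muscle level is close to the limit of detection. CD163 and CD163L1 are also genes that the study singled out for this comparison in these samples, and their direction here is no independent evidence.

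**Figure D1:**
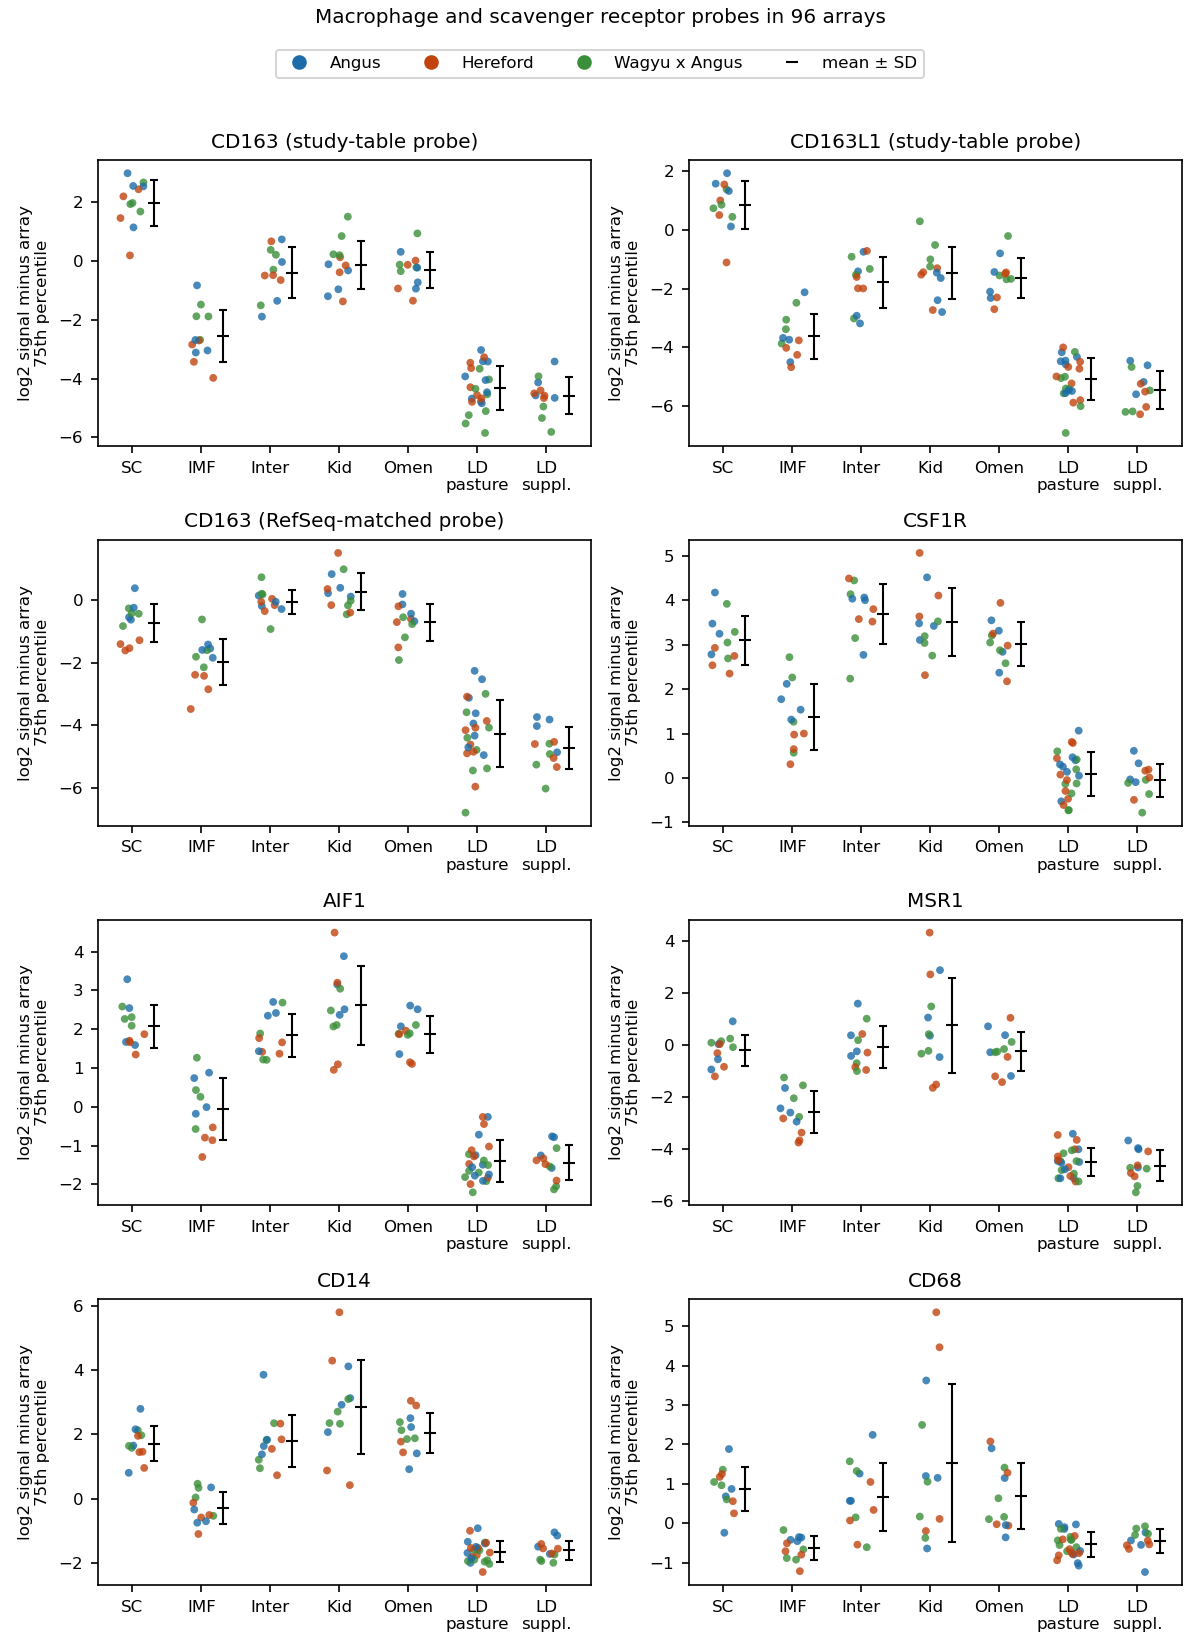
Levels (log2 signal minus the array's 75th percentile, y axis) of the 7 measured genes, with both CD163 probes, in each tissue (x axis). Each point is 1 array, coloured by breed, and bars give the mean ± SD. By the study-table probes CD163 and CD163L1 are highest in SC, while the other genes have SC near Inter, Kid and Omen, and every gene but CD68 has IMF between those depots and LD.

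The probes named CD163 did not behave alike. A probe that matches CD163 by RefSeq accession (A_73_P474123) lay at -1.61 to 0.37 in SC (median -0.59) and -3.48 to -0.62 in IMF (median -1.83). It lay at -0.46 to 1.49 in Kid (median 0.16), -0.93 to 0.72 in Inter (median -0.06) and -1.92 to 0.19 in Omen (median -0.65). By this probe SC was not the highest depot. Inter was 0.67 higher than SC (SE 0.20, adjusted p = 0.00795) and Kid 0.998 higher (SE 0.23, adjusted p = 0.00145), while Omen differed by 0.028 (SE 0.23, adjusted p = 0.934). IMF was lower than SC by this probe too, but by 1.24 (-1.24, adjusted p = 0.000258), and 5 of the 12 IMF arrays lay within the range of SC.

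Within each array the level of the study-table probe minus the RefSeq-matched probe was 2.73 ± 0.75 in SC (lowest 1.40). The same difference was 0.41 ± 0.87 in Omen, -0.32 ± 0.77 in Inter, -0.39 ± 1.13 in Kid and -0.56 ± 0.77 in IMF (SD, n = 12 each). All 12 arrays of IMF, Inter and Kid and 10 of Omen lay below every SC array. This pair of probes was picked after its values were seen, so the difference is a description with no test. Of the SC arrays 11 share scan day 1 with 5 Kid arrays, and on that day Kid minus SC was -2.25 by the study-table probe and 1.23 by the RefSeq-matched probe. Against the 1 SC array of day 3, IMF minus SC was -5.10 and -2.35 by the same probes. By the RefSeq-matched probe this was the highest of the SC arrays. Which transcript either probe reads was not tested.

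Most other probes of the family had the direction of the study-table probe. Beside it, 2 more probes named CD163 by the study's tables, the 3 CD163L1 probes and the 4 probes with a CD163L1 accession and another name (CD163 for 2 of them) were all lower in Inter, Kid and Omen than in SC, by 1.81 to 2.64 (differences of -2.64 to -1.81), and passed the test in all 3 comparisons. In IMF against SC these 9 probes ranged from -4.49 to -2.01. The 4 with conflicting names include A_73_119299, which the tables name DAD1 and which fell by 4.24 in IMF. WC1.3, the only gene measured of 9 listed for the WC1 group, had a mean level of 1.40 in SC, then -1.20 in Kid, -1.31 in Omen, -1.45 in Inter, -3.40 in IMF and -5.38 in LD, the order of CD163 and CD163L1. These are levels of its brightest probe, which correlated with the CD163 study-table probe at r = 0.99 within fat depots (60 arrays). The other WC1.3 probes with 1 name were unlike each other, with r of 0.94 (A_73_P091541), 0.69 (A_73_P115766) and 0.26 (A_73_P091536). By RefSeq, CD163, CD163L1 and WC1 genes are neighbours on 1 bovine chromosome, and bovine CD163L1 has WC1 among its synonyms. The sources disagree on the name of 4 of these probes, and CD163 and CD163L1 levels here are levels of the named probes.

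**Figure D2:**
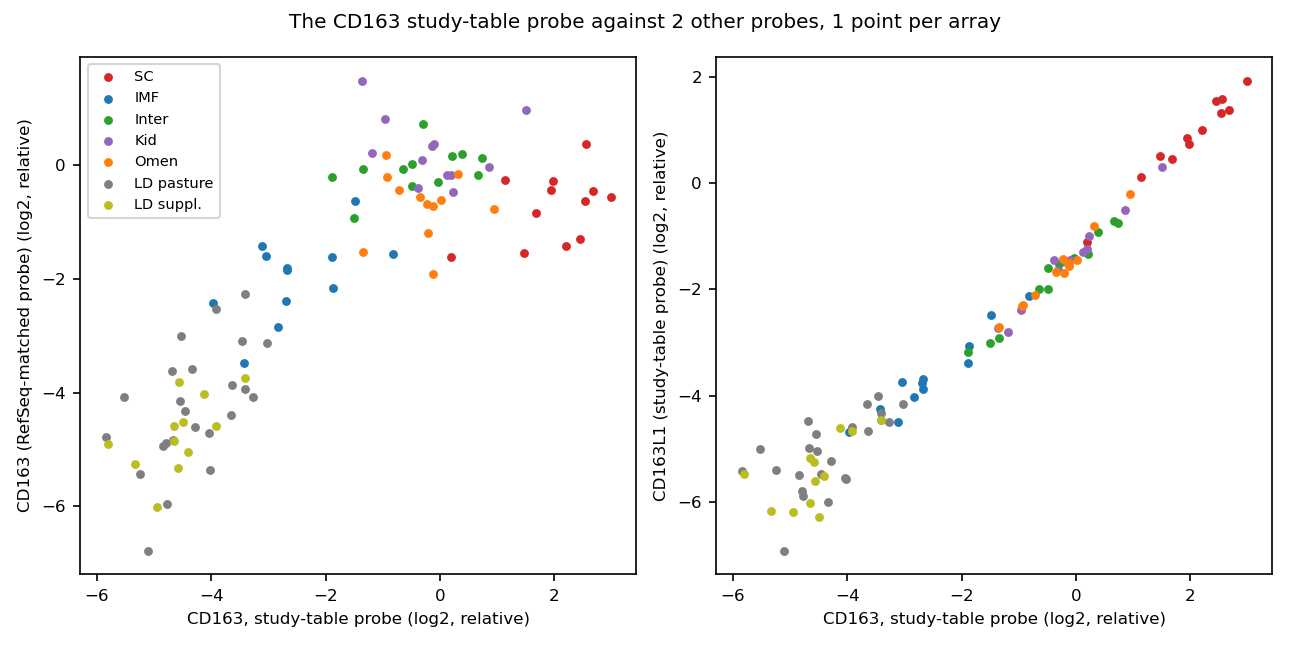
The CD163 study-table probe (x axis) against the RefSeq-matched CD163 probe (left y axis) and the CD163L1 probe (right y axis), all as log2 levels, with 1 point for each of the 96 arrays coloured by tissue. The 12 SC arrays leave the trend of the other tissues on the left and stay on it on the right.

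MSR1, the class A scavenger receptor, had a level of -1.21 to 0.92 in SC (median -0.02), -1.43 to 1.06 in Omen, up to 1.60 in Inter (median -0.26) and -1.65 to 4.34 in Kid. In IMF it lay between -3.76 and -1.25 (median -2.68), below every SC array, and in LD on pasture between -5.26 and -3.42. IMF minus SC was -2.37 (SE 0.28, 5.18-fold, adjusted p = 8.73e-08). None of its differences between SC and the other 3 depots passed the test by this probe. Its second probe (A_73_115241) was 0.73 higher in Inter than in SC (adjusted p = 0.0237) and 1.12 higher in Kid (adjusted p = 0.0491).

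CSF1R, the receptor for CSF1 and IL34, had a level of 2.35 to 4.17 in SC (median 2.99) and 0.31 to 2.72 in IMF (median 1.29), so that 11 of 12 IMF arrays lay below every SC array. The difference was -1.72 (SE 0.25, 3.30-fold, adjusted p = 2.37e-06), and its 3 probes gave -1.72 to -1.66. It was 0.59 higher in Inter than in SC (SE 0.24, adjusted p = 0.0478). This call was lost when any 1 of 18 of the 24 arrays was left out (adjusted p 0.0086 to 0.0858 over all 24 fits). It was also lost with the spread of all 60 fat arrays (adjusted p = 0.0622), breed as a covariate (adjusted p = 0.0522), slide as a random block (adjusted p = 0.156) and an equal-variance test (adjusted p = 0.0593). With scan day as a block over all 96 arrays the difference was 0.19 (adjusted p = 0.626). Without the 2 Inter arrays that carried myofibre RNA the difference was 0.78 (adjusted p = 0.00522).

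CD14, the co-receptor that hands lipopolysaccharide to TLR4, had a level of 0.81 to 2.80 in SC (median 1.65), -1.09 to 0.47 in IMF (median -0.42) and 0.42 to 5.80 in Kid (median 2.82). No IMF array reached the lowest SC array, and the difference was -1.998 (SE 0.20, 3.995-fold, adjusted p = 9.02e-09). Its 3 probes were not alike: A_73_116002 gave -2.07, and A_73_P108626 gave -0.25, which did not pass (adjusted p = 0.132).

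AIF1, a calcium-binding protein of activated macrophages, had a level of 1.35 to 3.29 in SC (median 1.98) and -1.29 to 1.26 in IMF (median -0.09). The groups did not overlap, and the difference was -2.13 (SE 0.27, 4.38-fold, adjusted p = 1.95e-07). CD68, a glycoprotein of late endosomes and lysosomes, had a level of -0.24 to 1.88 in SC (median 0.92) and -1.21 to -0.17 in IMF (median -0.58), with 11 of 12 IMF arrays below every SC array. Its difference was -1.49 (SE 0.18, 2.81-fold, adjusted p = 8.66e-08) by this brighter probe and -2.59 by its other probe (A_73_106271).

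In IMF against SC all 7 members were thus lower, where 33% of all probes tested were called lower, and the median difference of the members was -2.13 against -0.0029 over all probes. The direction was the same for all 7 within each breed. Only 1 SC array shares a scan day with IMF. Against it alone the members were lower by 2.50 (CD68, -2.50) to 5.21 (CD163L1, -5.21). For CD68, CSF1R, AIF1, MSR1 and CD14 it was the highest of all SC arrays. Their differences from it are therefore larger in size than those of the means (AIF1 -3.34 against -2.13). In the fit over all 96 arrays with scan day as a block all 7 remained called. The pan-leukocyte genes PTPRC, CD53, CORO1A, LCP1, CD37, CD48 and ITGB2 moved with the members: all 7 were lower in IMF, by a median of -1.40, and their summed level was 2.37 to 3.46 in IMF against 3.70 to 4.93 in SC. All 7 adipocyte markers were lower as well, by a median of -1.35, with summed levels of 7.34 to 9.27 against 9.27 to 9.90. What part either list or the muscle RNA has in the members' differences was not tested.

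By the brightest probe of each member IMF was also the lowest of the fat depots. All 7 were lower in IMF than in Inter (30% of all probes were called lower), than in Kid (27.4%) and than in Omen (28.4%). CD163 was lower by 2.15 (-2.15), 2.41 (-2.41) and 2.24 (-2.24) in that order, about as far as the others: MSR1 gave -2.51, -3.34 and -2.33, CSF1R -2.31, -2.14 and -1.64, CD68 -1.29, -2.16 and -1.31. The probes did not all show it: CD163L1 probe A_73_P089871 differed by 0.08, -0.10 and -0.05 (adjusted p 0.698 to 0.866), and CD14 probe A_73_P108626 by -0.03, -0.61 and -0.43, of which the last passed (adjusted p = 0.0384). These 3 comparisons and the one with SC share the IMF arrays. IMF and Inter share no scan day, so their own arrays cannot tell depot and day apart. The fit over all 96 arrays with scan day as a block links the days through LD and takes a day to act alike in all tissues. In it all 7 remained called lower in IMF than in Inter and than in Kid, with 18134 and 17910 of all probes called. Only 1 Kid array was scanned on day 3 with IMF, so a scan day block fitted to the IMF and Kid arrays alone rests on it. There the differences were -3.21 to -1.82, and the calls were lost.

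By their study-table probes CD163 and CD163L1 were also lower in the other 3 depots than in SC. Few other members passed there by their brightest probes. The RefSeq-matched CD163 probe was higher than in SC in Inter (0.67) and Kid (0.998) and differed by 0.028 in Omen. In Inter versus SC 3 members were called, against 48.8% of all probes: CD163 at -2.37 (SE 0.32, adjusted p = 2.22e-06), CD163L1 at -2.64 (SE 0.33, adjusted p = 8.87e-07) and CSF1R in the other direction. In Kid versus SC 3 were called, against 41.7%: CD163 at -2.11 (SE 0.31, adjusted p = 9.14e-06), CD163L1 at -2.34 (SE 0.33, adjusted p = 5.34e-06) and CD14 at 1.13 (SE 0.43, adjusted p = 0.0365). In Omen versus SC 2 were called, against 45.7%: CD163 at -2.29 (SE 0.27, adjusted p = 4.44e-07) and CD163L1 at -2.50 (SE 0.29, adjusted p = 3.49e-07). The shares of members called lie near or below the shares of all probes. Of the Inter arrays 8 lay below every SC array in CD163, of the Kid arrays 8 and of the Omen arrays 10. On scan day 1, which 5 Kid and 11 SC arrays share, Kid minus SC was -2.25 for CD163, -2.45 for CD163L1 and 1.52 for CD14. Against the 1 SC array of day 3, the 10 Omen arrays of that day differed by -2.86 for CD163 and -3.24 for CD163L1, and by -1.51 to -0.71 for the other 5 members. For these 5 members it was the highest of all SC arrays. Inter and SC share no scan day, so their own arrays cannot tell depot and scan day apart. With scan day as a block over all 96 arrays CD163 and CD163L1 remained called lower in Inter and CSF1R lost its call, with 13082 of all probes called. The call of CD14 in Kid was lost when any 1 of 9 of the 24 arrays was left out (adjusted p 0.0077 to 0.0668 over all 24 fits). It was also lost by the second probe (0.51, adjusted p = 0.304), the mean of its probes (0.67, adjusted p = 0.14), slide as a random block (adjusted p = 0.101) and scan day as a block (1.34, adjusted p = 0.0584). The 1 Kid and 1 SC array of day 3 differed by 0.13, and that SC array was the highest of SC for CD14. By their brightest probes CD68, AIF1 and MSR1 did not pass in any of these 3 comparisons, with differences of -0.23 to 0.96. With scan day as a block, which leaves the 1 SC array of day 3 beside Omen, AIF1 in Omen versus SC was -1.51.

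**Figure D3:**
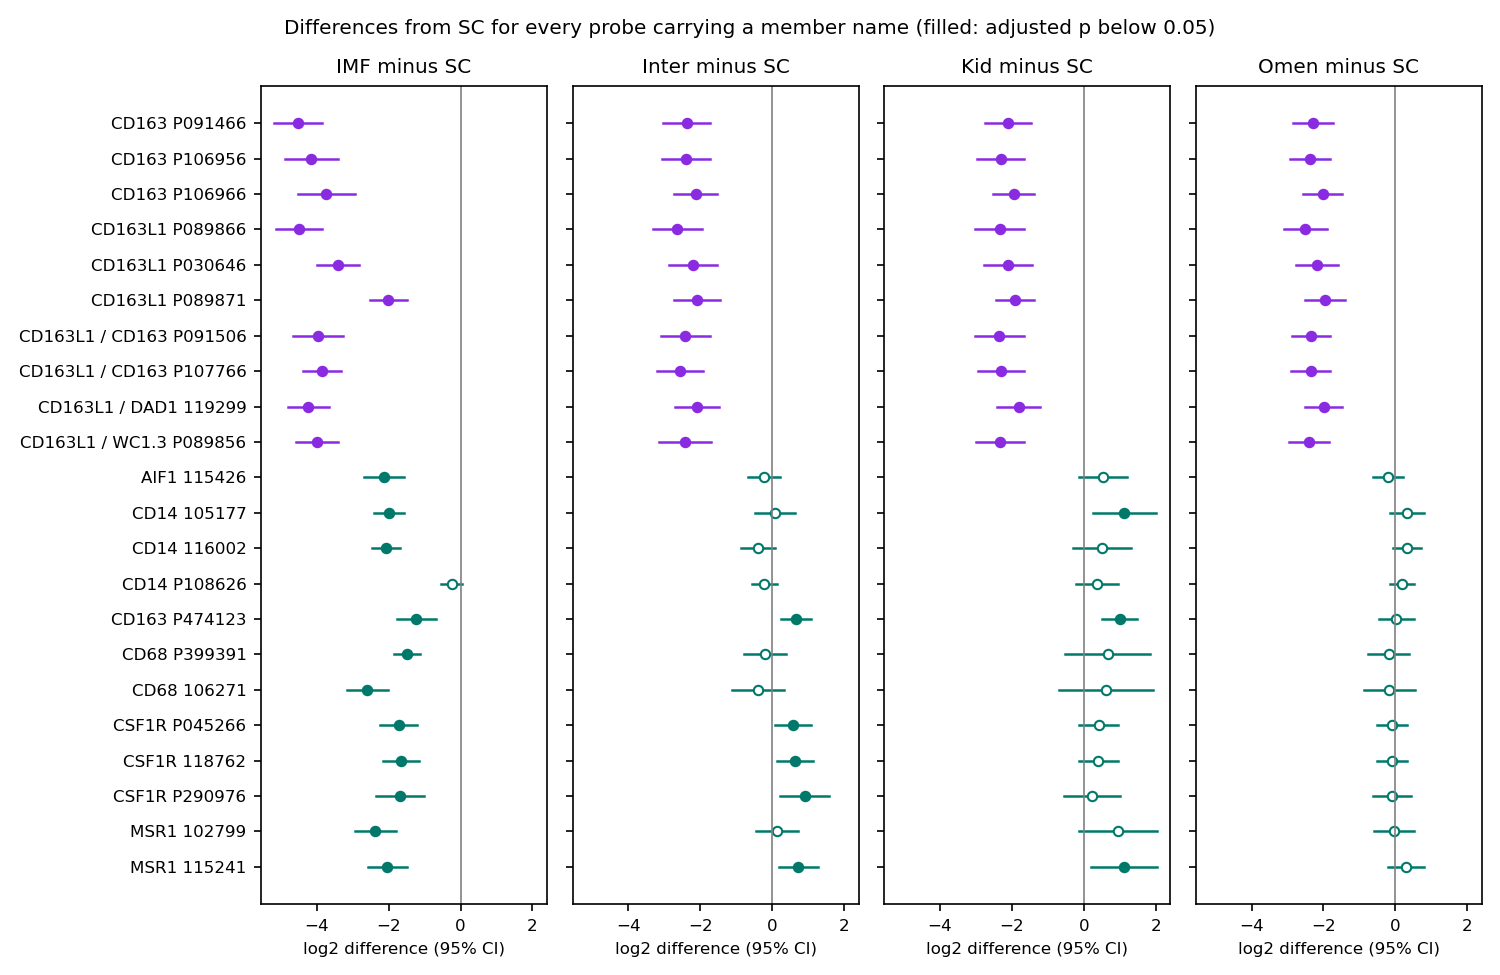
Differences from SC (x axis, log2, with 95% intervals) of all 22 probes that carry a member's name (y axis) in IMF, Inter, Kid and Omen. Purple marks probes named CD163 by the study's tables or CD163L1 by either source, green all others, and filled circles passed the test; the purple probes lie near -2 in Inter, Kid and Omen while the green ones lie around 0.

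Among Inter, Kid and Omen no member passed the test in the fits of each pair. The counts were 0 in Inter versus Kid (15.4% of all probes were called, 2 members at an unadjusted p under 0.05), 0 in Inter versus Omen (13.6%, 1 member) and 0 in Kid versus Omen (12.1%, 1 member), and an equal-variance test without moderation of the variances gave 0 in each as well. Other fits changed this. With scan day as a block over all 96 arrays 3 members passed in Inter versus Kid (AIF1, CD14 and MSR1, adjusted p 0.0041 to 0.0296) and 2 in Kid versus Omen (CSF1R and CD14), and the spread of all 60 fat arrays gave 2 in Inter versus Kid (AIF1 and CD14). The largest differences in size were CD14 at -1.05 (SE 0.46, adjusted p = 0.118) for Inter minus Kid, CSF1R at 0.67 (SE 0.23, adjusted p = 0.0541) for Inter minus Omen and MSR1 at 1.01 (SE 0.54, adjusted p = 0.228) for Kid minus Omen. The RefSeq-matched CD163 probe was 0.64 higher in Inter than in Omen (adjusted p = 0.0318) and 0.97 higher in Kid than in Omen (adjusted p = 0.00879). When depot and breed were fitted to the 60 fat arrays, all 7 members differed among the 5 depots, as did 87.2% of all probes.

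The SD was larger in Kid than in the other fat depots for 6 of the 7 members, by little for CD163L1 and CSF1R, and for CD163 it was larger in IMF and Inter. CD68 had an SD of 2.003 there, against 0.30 to 0.86 in the other fat depots, and MSR1 of 1.83 against 0.59 to 0.82. This came with 3 arrays, Hereford arrays 2 and 4 and Angus array 1. In them CD68 was 3.62 to 5.35, against -0.64 to 2.49 in the other 9, and CD14 was 4.12 to 5.80 against 0.42 to 3.13. MSR1 was 2.73 to 4.34 against -1.65 to 1.49, AIF1 3.20 to 4.49 against 0.95 to 3.15, and CSF1R 4.10 to 5.06 against 2.31 to 3.63. The 3 arrays were picked as those with the highest summed pan-leukocyte level. A gap in that sum, and in genes that follow it, was thus built in. How many of all probes part the 3 arrays from the 9 was not counted, and this is a description with no test. The summed level of the 7 pan-leukocyte genes was 6.32 to 7.69 in the 3 arrays and 3.47 to 5.40 in the 9. That of 9 T cell markers was 4.29 to 4.82 against 4.60 to 5.12, but this T cell sum need not follow most of its genes. Its median was 4.78 in Kid, 5.12 in SC and 5.85 in LD on pasture. Yet 5 of the 9 markers were called higher in Kid than in SC and 2 lower. CD163 by the study-table probe was not high in them (-1.37 to -0.14 against -0.96 to 1.51). The RefSeq-matched CD163 probe was at 0.21 to 1.49 in them against -0.46 to 0.97, with means of 0.68 and 0.12. Without the 3 arrays CD14 was 0.50 higher in Kid than in SC and no longer passed (adjusted p = 0.214), and CD163 and CD163L1 remained called at -1.86 and -2.05. CD68 turned from 0.67 to -0.31 (adjusted p = 0.463), MSR1 went from 0.96 to 0.11, AIF1 from 0.54 to 0.12 and CSF1R from 0.41 to 0.06, none of them called with or without the 3 arrays. All 7 members remained lower in IMF than in Kid, with CD68 at -1.17 instead of -2.16.

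**Figure D4:**
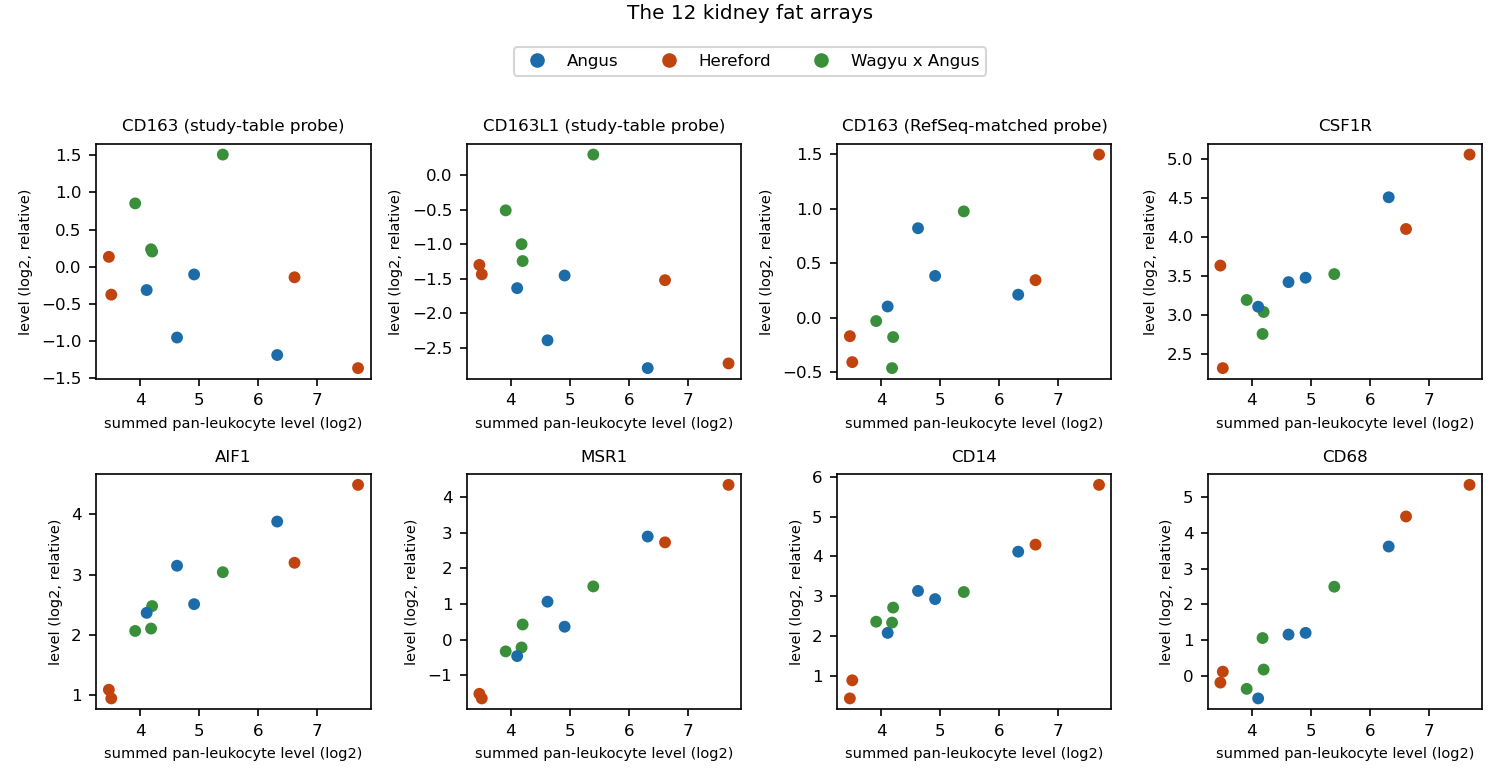
Level of each gene (y axis, log2) against the summed level of the 7 pan-leukocyte genes (x axis, log2) in the 12 kidney fat arrays, coloured by breed. The 3 arrays above 6 on the x axis are the highest for CSF1R, AIF1, MSR1, CD14 and CD68, and none of them is the highest for CD163 or CD163L1 by their study-table probes.

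The members fell into the same 2 sets when arrays were compared within depots. After the mean of each depot was subtracted, over the 60 fat arrays, CD163 (study-table probe) and CD163L1 correlated at r = 0.98. The 15 pairs among CSF1R, AIF1, MSR1, CD14, CD68 and the RefSeq-matched CD163 probe had r of 0.43 to 0.91 with a median of 0.70. The 12 pairs between these sets had r of -0.18 to 0.25 with a median of -0.01. These values are descriptions, as the arrays share slides and scan days and may share animals, and the 3 Kid arrays weigh on the second set.

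**Figure D5:**
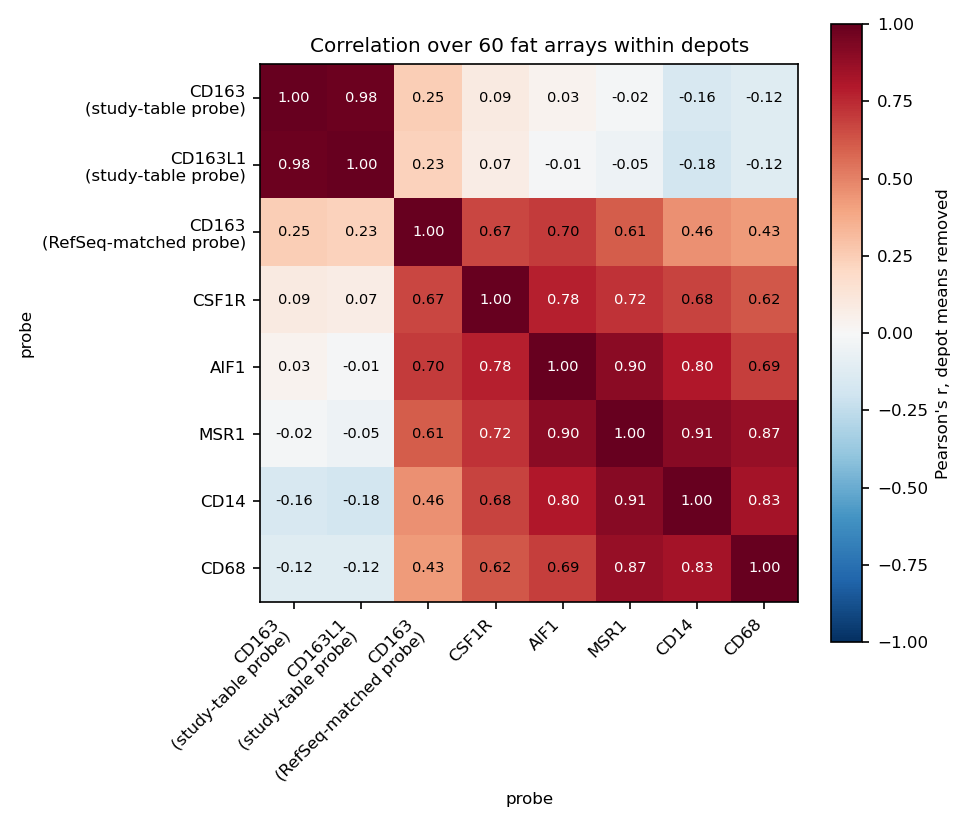
Pearson's r between probes (rows and columns) over the 60 fat arrays after subtraction of depot means, from -1 in blue to 1 in red. The study-table probes of CD163 and CD163L1 (0.98) form 1 block and the other 6 probes another (0.43 to 0.91), with values near 0 between them.

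The genes most like each member by the same measure, 1 probe per gene, were as follows. For CD163 they were WC1.3 (r = 0.99), CD163L1 and QPRT (0.77), and for CD163L1 WC1.3 (0.99), CD163 and SESN3 (0.75). For CSF1R they were C3AR1, a complement receptor (0.95), NCKAP1L (0.91) and PEPD (0.90). AIF1 was nearest to the Fc receptor FCGR1A (0.91), ARHGAP30 (0.90) and MSR1 (0.90), MSR1 to the chemokine receptor CCR1 (0.95), SPI1 (0.95) and FOLR2 (0.95), and CD14 to CCR1 (0.92), ABRACL (0.92) and PTPN18 (0.91). CD68 was nearest to the integrin chain ITGB2 (0.97), TRPV2 (0.95) and GRN (0.95). For the RefSeq-matched CD163 probe the nearest were SPIRE2 (0.72), HTATIP2 (0.71) and RBM47 (0.71). In the 24 LD arrays on pasture some of these held, such as C3AR1 with CSF1R (0.92), and others did not, such as ITGB2 with CD68 (0.14).

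Against muscle the members were higher in fat. In IMF versus LD on pasture 6 members were higher, where 36% of all probes were called higher: MSR1 by 1.94 (SE 0.22, adjusted p = 7.7e-10), CD163 by 1.77 (SE 0.27, adjusted p = 3.05e-07), CD163L1 by 1.45, CD14 by 1.36, AIF1 by 1.34 and CSF1R by 1.29. On scan day 3, which 12 IMF and 8 LD arrays share, these were 1.94, 1.81, 1.52, 1.33, 1.65 and 1.12. CD68 differed by -0.08 (SE 0.11, adjusted p = 0.492) by its brighter probe, while its other probe (A_73_106271) was 2.05 higher in IMF. The second CD163L1 probe (A_73_P030646) gave 0.14 for IMF minus LD (adjusted p = 0.444). Of the 4 CD163 probes 3 were higher in IMF, and A_73_P106966, above background on 7 of 12 IMF and 5 of 24 LD arrays only, did not pass. All 7 were lower in LD than in SC, where 40.2% of all probes were called lower, from -1.41 for CD68 to -6.30 for CD163 (limma, n = 24 and 12). On scan day 1, which 8 LD and 11 SC arrays share, CD163 differed by -6.76. All 7 were also higher than LD in Inter (39.6% of all probes called higher), in Kid (38.7%) and in Omen (40.2%). By the brightest probes the order of mean levels was SC, then Kid, Omen and Inter without differences past the test, then IMF, then LD for CD163 and CD163L1. For CSF1R, AIF1, MSR1 and CD14 it was the 4 larger depots, then IMF, then LD, and for CD68 IMF and LD did not differ past the test by the brighter probe.

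The ligands and partners of these receptors were measured as well. CSF1, a ligand of CSF1R, was at 0.10 in SC and -1.12 in IMF, a difference of -1.22 (adjusted p = 4.05e-06), and IL34, the other ligand, differed by -0.58 (adjusted p = 0.00887). CSF1 did not pass in Inter, Kid or Omen versus SC, and IL34 did not in Inter or Kid but fell by 0.43 in Omen (adjusted p = 0.0236). SPI1, which encodes the myeloid transcription factor PU.1, was at 2.13 in SC and 0.07 in IMF (-2.06, adjusted p = 3.06e-08). Of the partners of CD14, LY96 was lower in IMF (0.26 in SC, -0.98 in IMF, adjusted p = 6.45e-07) and LBP by -0.91 (adjusted p = 2.3e-05), while TLR4 differed by -0.21 (adjusted p = 0.3) and was higher in Inter (0.66), Kid (0.54) and Omen (0.53) than in SC. HP, haptoglobin, the carrier whose complex CD163 takes up, was at 1.69 in SC and -0.23 in IMF (-1.92, adjusted p = 0.000223) and 5.22 higher in IMF than in LD. HMOX1, which degrades haem, differed by 0.06 between IMF and SC (adjusted p = 0.816).

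The wider lists gave the following counts for IMF versus SC, where 33% of all probes were called lower and 31.2% higher. Of 10 genes measured for macrophage lysosome and complement C1q, 10 were lower (C1QA -1.80, CTSD -1.01, LAPTM5 -1.41), with a list median of -1.10 against -0.0029 over all probes. Of 16 resident macrophage surface genes, 11 were lower and 5 did not pass (SIGLEC1 -2.06, CD86 -1.88, FCER1G -1.91). Of 5 myeloid transcription factors 4 were lower (IRF5 -1.38, CEBPA -1.71, which adipocytes express too), and of 3 CSF1 receptor ligands and growth factor receptors 2 were lower, and CSF2RB was not above background on any SC array. Of 11 other scavenger receptors 7 were lower and 1 higher (SCARB1 -1.22, CD36 -1.36, CXCL16 -0.43), of 6 lipopolysaccharide receptor genes 4 were lower (CD180 -2.62, MYD88 -0.80), and of 8 haptoglobin and haemoglobin genes 4 were lower (BLVRA -0.86, FTH1 -0.30, with HPX at -0.13). In the other 3 depots against SC the macrophage lists were split: the surface genes were 7 higher and 1 lower in Inter, 5 and 1 in Kid and 2 and 2 in Omen, and the lysosome list 0 and 3, 1 and 2, and 0 and 3. Of all probes 21.6% were called higher and 27.2% lower in Inter, 19.4% and 22.2% in Kid, and 20.5% and 25.2% in Omen, and several of the list counts are near these shares. SIGLEC1 was lower in Kid (-0.72, adjusted p = 0.00123) and Omen (-0.90, adjusted p = 6.28e-05) than in SC.

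Markers of other cells gave these counts, to be read against the same shares of all probes (31.2% higher and 33% lower in IMF, 20.5% and 25.2% in Omen, 19.4% and 22.2% in Kid). For T cell markers 1 was higher and 1 lower of 9 in IMF versus SC (ZAP70 0.89), and 7 were higher and 2 lower in Omen versus SC (ZAP70 1.86, CD8A 0.84, CD4 -0.39) and 5 and 2 in Kid versus SC. In IMF versus SC neutrophil markers were 4 lower and 1 higher of 6 (S100A8 -3.60, S100A12 -2.71, ELANE 0.55), B cell markers 3 lower of 4 (JCHAIN -1.04, BLK -0.67, CD79A -0.30) and endothelial markers 4 lower of 6 (CDH5 -1.08, ESAM -0.86, KDR 0.04). Fibroblast markers were 5 lower and 2 higher of 7 (COL1A1 -1.58, COL3A1 -1.11, DCN -0.51). Dendritic cell markers were 1 higher of 2 (CD1A 0.79, BATF3 0.13), lymphatic endothelial markers 2 higher of 4 (PROX1 3.68, RELN 2.45, PDPN 0.34) and mesothelial markers 1 lower of 2 (UPK3B -0.84, MSLN 0.26). What part any of these cells has in the members' values was not tested.

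Breed and feeding gave no calls among the members in the fits of their brightest probes. For breed over the 60 fat arrays 0 of 7 passed (3.2% of all probes called, 3 members at an unadjusted p under 0.05). AIF1 was nearest (adjusted p = 0.0532), with a mean in Hereford IMF of -0.87 ± 0.32 against 0.36 ± 0.53 in Angus and 0.34 ± 0.75 in Wagyu x Angus (SD, n = 4 arrays each). Over all depots Hereford minus Angus was -0.74 for AIF1 (SE 0.20, adjusted p = 0.0685), and Wagyu x Angus minus Hereford was 0.70 for CD163 (SE 0.23, adjusted p = 0.0776). With the mean of all CD163 probes the latter passed (0.65, adjusted p = 0.0358), and with quantile normalization 1 member passed for breed in fat. The interaction of depot and breed gave 0 members and 0% of all probes called, with 0 members at an unadjusted p under 0.05. In LD on pasture breed gave 0 of 7 (14.7% of all probes, 0 at an unadjusted p under 0.05), though in the deposited table, which is not scaled between arrays, Hereford minus Angus was -0.70 for CD68 (adjusted p = 0.0284, against -0.19 and 0.449 here). Supplement against pasture in LD gave 0 of 7 (11.2%, 0 at an unadjusted p under 0.05). The largest difference in size for the supplement was CD163L1 at -0.38 (SE 0.22, adjusted p = 0.297).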

How the data were processed

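Total RNA from post-slaughter tissue, extracted with Trizol, was read on 96 one-colour Agilent 4x44K bovine arrays, 24 slides of 4. The authors deposited scanner intensity values per spot (Agilent Feature Extraction 10.7.3.1), among them a background-subtracted processed signal with no scaling between arrays. They also deposited a table of log2 values for 34227 probes, which was used to choose the probes tested and as an alternative. Matched against the scanner files, the scale of this table is log2 of the median spot signal less the median local background, uncentred between arrays.

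Spots flagged as outliers were left out, spots of a probe were averaged, and log2(processed signal) minus each array's 75th percentile is called the level. Differences were tested in R 4.3.3 by lmFit and eBayes of limma 3.58.1, with Benjamini-Hochberg adjusted p over all 34227 probes and a threshold of 0.05. Pairs of tissues were fitted on their own arrays. Depot and breed were fitted over the 60 fat arrays, breed over the 24 LD arrays on pasture, and supplement with breed over the 36 LD arrays. The fit was tested on simulated data. Tables were made with pandas 2.3.3, scipy 1.17.1 and numpy 2.4.6 in Python 3.11.15, and figures with matplotlib 3.10.9.

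Probes were named from bovine RefSeq accessions and from the tables of the study. Of the probes tested 21296 have 1 name, and 149 whose sources disagree were used for no gene. The members and gene lists were chosen with earlier results of these data known. Each gene is given by its probe with the highest mean level over all arrays. Partners of the members, the 3 genes of each list with the lowest adjusted p over the 5 fat depots, and the 3 genes most like each member are named beside the members.

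Precision is limited by the number of arrays. Between 66.2% and 88.7% of probes were above background per array, no spot was saturated, and no arrays were identical. The labels do not tie arrays to animals, and by the study's methods depots were dissected from the same carcasses. P-values therefore treat arrays as independent. The replicate number equals the position on the slide for all 96 arrays, and deviations of IMF and SC arrays with the same number correlated between -0.03 and 0.10, so the numbers were not taken as pairs. A planned description of promoter motifs was not run, and no sequences are printed.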

Additional observations from a re-analysis of the deposited data

Results flagged for a closer look

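In 168 sets of 4 or 8 arrays of 1 tissue, breed and feeding group, the highest or lowest value of a member probe stood apart from the others by the Dixon criterion in 5 cases, where chance flags about 1 in 20. Arrays are numbered by accession order within each set, not by the replicate numbers of the labels. CD163 by its study-table probe was 0.67 in Inter Hereford array 1 and between -0.64 and -0.48 in the other 3. CD163L1 was -2.73 in Kid Hereford array 2, against -1.52 to -1.30 in the others, and this array is 1 of the 3 kidney fat arrays with high pan-leukocyte levels. CD163L1 was -0.20 in Omen Wagyu x Angus array 4, against -1.68 to -1.55. CSF1R was 2.77 in Inter Angus array 3, against 4.00 to 4.06. AIF1 was 2.11 in Omen Wagyu x Angus array 2, against 1.85 to 1.89.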

How the results depend on the processing

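The 7 calls of lower members in IMF than in SC held under every alternative run for them, within each breed and when each array was left out in turn (7 to 7). The second-brightest probes gave 6, since AIF1 has 1 probe. Leaving out 1 array gave 2 to 3 members called for Inter versus SC, 2 to 3 for Kid versus SC and 2 to 2 for Omen versus SC. It was run for these 4 comparisons alone. Of the other recomputed counts of members called, 297 stayed within 1.5 times and 16 moved. A replicate block, with the array's position on the slide as its number, left 7 members called for IMF versus SC, 3 for Inter versus SC, 3 for Kid versus SC and 2 for Omen versus SC. It changed no other count of members either.

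The deposited log2 table, not scaled between arrays, moved the median of all probes to 0.63 for IMF versus SC and to 0.98, 0.83 and 0.82 for Inter, Kid and Omen versus SC, which changes what is counted as higher. It called 7 members for Inter versus SC, 7 for Kid versus SC, 6 for Omen versus SC and 1 for Inter versus Omen. In it CD68 and AIF1 turned to 0.78 and 0.79 higher in Inter than in SC. CSF1R, AIF1 and MSR1 turned to 0.69, 0.75 and 0.82 higher in Omen than in SC, and CD68 in IMF to 0.61 above LD. All of these but MSR1 lie below the shift of the median, which is 0.67 for IMF versus LD. Over all probes the table called 31054, 26643 and 29014 against 16698, 14263 and 15654 for Inter, Kid and Omen versus SC, 2942 against 5276 for Inter versus Kid and 1426 against 4150 for Kid versus Omen. The share of calls that were higher in IMF than in SC was 48.6%, 37.5% with each array centred on its mean and 92.0% with that table. The median of all probes moved to -0.13 with the centring and to -0.11 with quantile normalization.

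The second-brightest probe of each member turned CD163 to 0.67, 0.998 and 0.028 for Inter, Kid and Omen versus SC and to 0.64 for Inter versus Omen. It gave 1 call for Omen versus SC, 3 for Inter versus Omen and 1 for Kid versus Omen, turned CD68 to 2.05 for IMF versus LD, and lost CD163L1 there (0.14, adjusted p = 0.444). The mean of all probes gave 0.98 for CD68 in IMF versus LD and 1 call for Inter versus Omen, as did centring on the array mean (1), normexp background correction (1) and the deposited table scaled to its 75th percentile (1). The spread of all 60 fat arrays gave 2 calls for Inter versus Kid, where it called 6877 of all probes. A scan day block over all 96 arrays gave 3 for Inter versus Kid and 2 for Kid versus Omen, where it called 7774 and 7505 of all probes. Within the arrays of each pair it left 0 for IMF versus Kid, where 1 Kid array shares a day with IMF. Quantile normalization gave 1 call for breed in fat. Over all probes the scan day block over all 96 arrays called 17271 against 21957 for IMF versus SC, 10499 against 15654 for Omen versus SC and 17910 against 19115 for IMF versus Kid. The block within the arrays of each of these pairs rests on 1 SC or 1 Kid array and called fewer. The cause of these shifts was not tested.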
